A study of Mus musculus with 14 samples.

Results

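Described here are 37 genes of T cells and cytotoxic lymphocytes, chosen by name and all found among the 46959 gene entries of an RNA sequencing table from Eµ-Myc mouse lymphomas. In Eµ-Myc mice the enhancer of the immunoglobulin heavy chain locus drives a Myc transgene, and malignant cells of the B lineage arise. The controls were 12 cultured lines labelled WT, each from a different transgenic mouse, numbered 115, 136, 309, 504, 505, 506, 517, 524, 549, 649, 688 and 801. They were untreated and had spent 24 h in culture, in medium supplemented with L-asparagine. The other 2 libraries came from lymph node B-cell lymphomas that formed in wild-type C57BL/6 mice after engraftment of line 506. Treatment ran from day 7 after the cells were injected to the disease endpoint, with vehicle (NaCl 0.9%) in 1 mouse and asparaginase (ASNase), which degrades asparagine, in the other. Each lymphoma is thus 1 line, 1 mouse and 1 library, and the comparison between them has no replicate check. Levels are given as CPM (counts per 1000000 counts of the library, scaled by TMM).

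T cells recognise antigen through a receptor whose alpha and beta chains are joined to the CD3 chains, with CD4 or CD8 as coreceptor. The kinase Lck phosphorylates the CD3 chains, Zap70 binds to them, and Lat carries the signal on. Cytotoxic T cells and natural killer (NK) cells kill by releasing perforin and granzymes, and a lymph node is normally rich in T cells. In bulk libraries such as these, fewer cells of a type and less RNA per cell cannot be told apart.

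The upstream sequences of 6 members are shown as examples of members with unlike ratios between the lymphomas. Cd3g, Cd3d and Cd3e encode CD3 chains, lie near each other on chromosome 9 and were several-fold lower in the ASNase than in the vehicle lymphoma. Gzma, Gzmb and Klrk1, of cytotoxic cells, had intervals of the ratio between the lymphomas that included 1, Gzma and Gzmb on few counts. They do not stand for all cytotoxic genes, since Nkg7 was 20.2-fold lower in the ASNase lymphoma (6.62 to 101). Each sequence is the 250 bases before the RefSeq start in GRCm38.p6, read 5′ to 3′ on the strand of the gene. Capitals mark 5 motifs searched on both strands, the RUNX core TGTGGT, the TCF/LEF core CTTTGA, the GATA core AGATAA, the E-box CAGGTG and the ETS core AGGAAG.
Cd3g, chr9:44980432-44980681, minus strand: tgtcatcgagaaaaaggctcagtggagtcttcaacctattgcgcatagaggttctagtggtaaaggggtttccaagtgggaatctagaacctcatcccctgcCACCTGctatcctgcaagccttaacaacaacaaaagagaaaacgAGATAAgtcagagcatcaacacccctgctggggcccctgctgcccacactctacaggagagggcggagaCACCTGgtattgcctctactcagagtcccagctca
Cd3d, chr9:44981536-44981785, plus strand: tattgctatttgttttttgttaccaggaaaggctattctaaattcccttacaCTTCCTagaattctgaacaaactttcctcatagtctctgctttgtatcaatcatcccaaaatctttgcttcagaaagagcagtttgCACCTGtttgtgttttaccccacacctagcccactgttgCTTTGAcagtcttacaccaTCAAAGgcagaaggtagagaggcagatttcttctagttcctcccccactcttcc
Cd3e, chr9:45009612-45009861, minus strand: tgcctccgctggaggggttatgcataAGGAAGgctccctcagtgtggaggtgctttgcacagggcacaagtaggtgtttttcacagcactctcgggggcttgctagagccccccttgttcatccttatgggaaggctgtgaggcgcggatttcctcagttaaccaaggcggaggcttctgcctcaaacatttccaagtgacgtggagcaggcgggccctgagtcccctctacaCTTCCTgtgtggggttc
Gzma, chr13:113100982-113101231, minus strand: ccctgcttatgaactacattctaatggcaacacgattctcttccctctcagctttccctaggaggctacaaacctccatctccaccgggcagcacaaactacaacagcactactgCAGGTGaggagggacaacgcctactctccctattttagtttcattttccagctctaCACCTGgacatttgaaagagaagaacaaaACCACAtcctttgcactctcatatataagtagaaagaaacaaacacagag
Gzmb, chr14:56262335-56262584, minus strand: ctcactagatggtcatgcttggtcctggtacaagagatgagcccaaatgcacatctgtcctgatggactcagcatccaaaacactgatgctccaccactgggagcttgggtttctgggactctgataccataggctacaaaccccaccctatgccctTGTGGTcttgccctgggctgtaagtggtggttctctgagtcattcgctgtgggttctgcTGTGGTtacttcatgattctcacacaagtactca
Klrk1, chr6:129623865-129624114, minus strand: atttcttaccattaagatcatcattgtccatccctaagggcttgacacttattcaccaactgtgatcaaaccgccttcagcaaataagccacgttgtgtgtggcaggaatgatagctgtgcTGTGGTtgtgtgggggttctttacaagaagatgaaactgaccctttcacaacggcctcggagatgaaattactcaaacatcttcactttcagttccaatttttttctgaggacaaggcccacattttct
The starts of Cd3g and Cd3d, which are read in opposite directions, are 1355 bases apart. RefSeq windows were found for 26 of the 37 members, 33 windows in all. The RUNX letters were in 9 of the 33 (27.3%), against 14% of all 32851 windows of that length. Ncr1 had windows that overlap almost fully, each counted among the 9. By gene, they were in 4 of 5 cytotoxic effectors (Gzma, Gzmb, Nkg7 and Prf1), in Klrk1 and Ncr1, in 2 of 4 signalling genes (Lck and Zap70), and in 0 of the 4 receptor and CD3 genes with a window (Cd3d, Cd3e, Cd3g and Cd247). The E-box letters were in 11 windows (33.3% against 17.2%) and those of ETS in 16 (48.5% against 29.5%). TCF/LEF letters were in 4 windows (12.1% against 13.8%) and GATA letters in 2 (6.06% against 9.99%). The motifs marked in the 6 windows do not overlap. A match of letters describes the window and is not a measured binding site.

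The lines had 24597230 to 32614751 counts each, the vehicle lymphoma had 27715832 and the ASNase lymphoma 25690935. A count of 0 allows up to 3 counts, which came to 0.0896 to 0.124 CPM, and all intervals cover counting error only. The B-cell label held in both lymphomas, where 13 B cell genes summed to 4166 CPM (vehicle) and 3135 CPM (ASNase) beside 2417 to 3633 CPM in the lines.

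The cultured lines give the level of each member without host tissue. No line had a count of 12 members, namely Cd3e, Trbc2, Cd4, Icos, Themis, Bcl11b, Nkg7, Gzma, Gzmb, Gzmk, Klrk1 and Ncr1. A further 14 had counts but stayed under 1 CPM in every line, among them Cd3d, Cd3g, Trbc1, Cd8a, Cd8b1, Lat and Foxp3. The remaining 11 reached 1 CPM in at least 1 line. Line 506, the source of both lymphomas, had no count of 28 members.

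Cd2, an adhesion receptor that mouse B cells also carry, was the only member at 1 CPM or more in all 12 lines. It ran from 5.55 CPM in line 136 through a median of 20.1 CPM to 108 CPM in line 309. Il2ra, the alpha chain of the interleukin-2 receptor, ran from 0.395 CPM in line 524 through a median of 13.1 CPM to 30.1 CPM in line 688. Line 506 was second highest for it, at 28.4 CPM. Lck ran from 0.656 CPM in line 504 through a median of 4.43 CPM to 38.7 CPM in line 524, with 1.73 CPM in line 506. Cd6, a scavenger-type receptor of T cells and some B cells, was at 125 CPM in line 136, 19.9 CPM in line 649 and 4.78 CPM in line 517. The other 9 lines stayed below 1 CPM of Cd6, and line 506 had no count. Zap70 was also highest in line 136, at 9.33 CPM, and had 1 count in line 506. Tcf7, which encodes the T cell transcription factor TCF-1, stayed between 0.359 and 2.44 CPM.

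**Figure D1:**
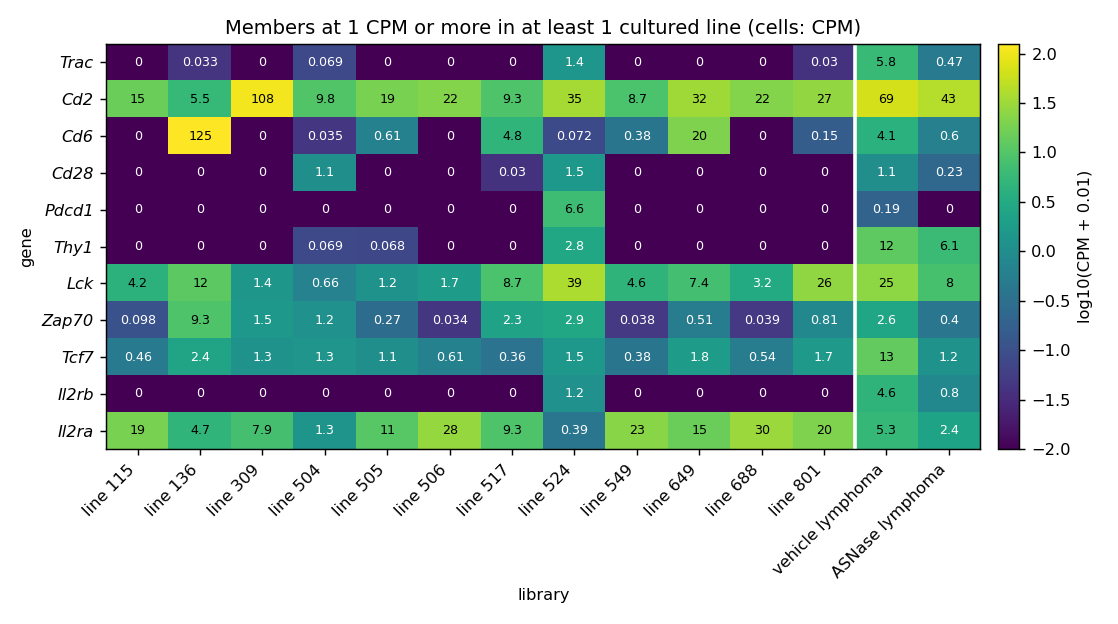
Levels of the 11 members that reached 1 CPM in a cultured line, for the 12 lines and both lymphomas (columns). Colour is log10(CPM + 0.01) and the number in each cell is CPM. Cd2 is present in every line, Cd6 is highest in line 136, and Trac, Pdcd1, Thy1 and Il2rb reach 1 CPM in line 524 alone among the lines.

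Line 524 had the most members at 1 CPM or more, 9 against 3 to 6 in the other lines. Pdcd1, the inhibitory receptor PD-1, had 183 counts there (6.57 CPM) and none in the other 11 lines. Il2rb, the beta chain of the interleukin-2 receptor, had 33 counts in line 524 and none elsewhere, and Thy1, a T cell surface protein, had 78 counts beside 2 each in lines 504 and 505. Trac, the alpha chain constant region, had 40 counts (1.43 CPM) in line 524, where the 2 beta constant regions, Cd3d, Cd3e, Cd3g, Cd4, Cd8a and Cd8b1 had 0. Cd28, a costimulatory receptor, was at 1.54 CPM in line 524 and 1.07 CPM in line 504.

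The lymphomas were then set against the lines, to see which members the tumours hold beyond the cells in culture. The vehicle lymphoma had counts of all 37 members and the ASNase lymphoma of 34, against 9 to 18 in a line. Of 35 members tested, 16 were higher in the lymphomas than in the lines (edgeR's quasi-likelihood test, Benjamini-Hochberg adjusted p under 0.05), where 13.4% of all 17450 genes were higher. None was lower, where 11.1% of all genes were, and 25 members had an unadjusted p under 0.05. Of the 35, 18 passed the filter on low counts only through a lymphoma and so had to be higher there. The calls split into 12 of these 18 (65.1% of such genes overall) and 4 of the 17 that passed through a line (7.56% overall), namely Cd247, Cd8b1, Lat and Tcf7. Of those 17, 0 were lower, against 12.3% overall. Both lymphomas lay above every line for 21 members, as they did for 16% of all genes with a count. For the 12 members without a count in any line, a single count in each lymphoma was enough for this. All residual degrees of freedom come from the lines, so these p-values measure the spread between lines and not between tumours.

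Of the receptor and CD3 chains, Cd247 and Trac passed the filter through a line. Cd3d, Cd3e, Cd3g, Trbc1 and Trbc2 passed only through a lymphoma, so their direction was fixed and their adjusted p-values describe them, beside the 65.1% of such genes called overall. Of each pair of values the vehicle lymphoma comes first. Cd3e (chr9:44998743-45009590) had 97 counts in the vehicle lymphoma, 10 in the ASNase lymphoma and none in any line (adjusted p = 0.0376). Against 3 counts over all lines together, the vehicle lymphoma was 365-fold and the ASNase lymphoma 39.0-fold higher, leaving out counting error of the lymphomas. Cd3g (chr9:44969572-44980431) had 143 and 28 counts against 2 in line 115 and 0 in the other lines (adjusted p = 3.51e-05). Cd3d (chr9:44981793-44987052) had 84 and 5 counts against 0 to 3 in the lines (adjusted p = 0.00810), so its ASNase value lay just above the lines. Trbc1 and Trbc2, the beta constant regions, are near-identical copies and their division of reads is uncertain. Trbc2 had 311 and 30 counts and none in the lines (adjusted p = 0.0232), and Trbc1 had 148 and 14 against 1 in line 688 (adjusted p = 6.05e-06). Cd247, the zeta chain, was at 2.80 and 0.701 CPM against 0.0345 to 0.602 CPM in the lines (log2 difference 2.80, SE 0.72, adjusted p = 0.0135). Exons of Cd247 overlap those of Gm16565 on the same strand and Pou2f1 on the opposite strand, so its reads are uncertain. Trac, at 5.80 and 0.468 CPM, did not pass (adjusted p = 0.134), and without line 524 its adjusted p was 0.000204. In that fit Trac passed the filter only through a lymphoma, so its direction was fixed.

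Of the coreceptor genes only Cd8b1 passed the filter through a line, and the direction of Cd4 and Cd8a was fixed by passing through a lymphoma alone. Cd4 (chr6:124864692-124888221) had 429 and 145 counts and none in any line (adjusted p = 0.0181). Against 3 counts over all lines together it was 1614-fold (vehicle) and 566-fold (ASNase) higher, leaving out counting error of the lymphomas. Cd8a (chr6:71373427-71379173) had 216 and 15 counts against 1 in line 549 (adjusted p = 4.07e-06). Cd8b1 was at 5.54 and 0.802 CPM against 0 to 0.392 CPM (log2 difference 4.75, SE 1.23, adjusted p = 0.0146). Neither lymphoma overlapped the lines for any of the 3.

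Among surface receptors, signalling proteins and transcription factors, Lat and Tcf7 were called after passing through a line, and Foxp3, Bcl11b, Gata3 and Icos after passing only through a lymphoma, which fixed their direction. Lat, the adaptor, was at 8.56 and 2.14 CPM against 0.194 to 0.759 CPM in the lines (log2 difference 3.20, SE 0.40, adjusted p = 0.000134). Tcf7 was at 12.8 and 1.24 CPM (log2 difference 1.82, SE 0.60, adjusted p = 0.0408), and only the vehicle value lay above the lines. Its call was lost in 5 of 12 fits that left out 1 line, at an adjusted p of up to 0.0579. Foxp3, the factor of regulatory T cells, had 33 and 3 counts against 0 to 2 in the lines (adjusted p = 0.0188), and its exons overlap those of Ccdc22 on the opposite strand and Ppp1r3fos on the same strand, so its reads are uncertain. Bcl11b, a factor of T cell commitment, had 79 and 11 counts and none in the lines (adjusted p = 0.0395). Gata3, a factor of helper T cells, had 10 and 5 counts against 0 or 1 (adjusted p = 0.0119). Exons of Gata3 overlap those of 9230102O04Rik on the same strand and Gm13256 on the opposite strand, so its reads are uncertain too. Icos, a costimulatory receptor, had 34 and 17 counts and none in the lines (adjusted p = 0.0471). The Icos call was lost in 10 of 12 fits without 1 line, at an adjusted p of up to 0.0534.

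Among the 12 others of these roles, 2 came near the threshold. Thy1 was at 12.0 and 6.11 CPM, above the 2.80 CPM of line 524 and the other lines (adjusted p = 0.0600), and Themis, whose exons overlap 4930519F09Rik on the opposite strand, had 29 and 5 counts and none in the lines (adjusted p = 0.0630). Ctla4 (0.0923), Eomes (0.0916) and Cd5 (0.170), given with their adjusted p, lay above all lines in the vehicle lymphoma but not in the ASNase lymphoma. Cd2, Cd6, Cd28, Pdcd1, Lck, Zap70 and Tbx21 overlapped the lines in both lymphomas, with adjusted p-values from 0.359 (Cd2) to 0.839 (Tbx21).

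Klrk1 was the only call among the 9 cytotoxic, NK and interleukin-2 receptor genes, and it passed the filter only through a lymphoma. Klrk1, the activating receptor NKG2D, had 30 and 20 counts and none in the lines (adjusted p = 0.0470), and it too lost its call in 10 of those 12 fits. Nkg7, a protein of cytotoxic granules, had 63 and 3 counts and none in the lines (adjusted p = 0.0576), and Gzma, granzyme A, had 13 and 11 (adjusted p = 0.0647). Gzmb and Gzmk, with 4 and 4 and with 1 and 0 counts, were too low to test. Prf1, perforin, did not pass (adjusted p = 0.646), with 0.547 and 0.234 CPM inside the 0 to 0.570 CPM of the lines. Ncr1 had 12 and 4 counts and none in the lines (adjusted p = 0.0840). Il2rb, at 4.60 and 0.802 CPM, was above line 524 in the vehicle lymphoma alone (adjusted p = 0.0891), and Il2ra lay within the range of the lines (adjusted p = 0.264).

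The result rested on which lymphoma was used. With the vehicle lymphoma alone as the tumour, 13 of 33 members tested were higher and 0 lower (6.92% and 3.76% of all genes). With the ASNase lymphoma alone 5 of 23 were higher and 0 lower (7.27% and 4.55% of all genes). The 5 were Cd3g (adjusted p = 0.00104), Trbc1 (0.000710), Cd8a (0.000576), Cd4 (0.0444) and Lat (0.0238). The difference between these fits was not tested. Of the calls in them, only Cd247, Cd8b1, Lat and Tcf7 (vehicle alone) and Lat (ASNase alone) had passed the main filter through a line. The others had passed only through a lymphoma, which fixed their direction. The shares of all genes given for these fits do not separate such genes. Without line 524, 21 members were higher, the additions being Trac, Thy1 (adjusted p = 4.73e-05), Il2rb (0.0223), Cd5 (0.0154) and Nkg7 (0.0481). In the remaining lines none of these additions reached the filter on low counts, so they passed only through a lymphoma and their direction was fixed. The share of all genes called in this fit is not given here. Without line 506 there were 13 higher and 0 lower (12% and 9.76% of all genes). DESeq2 in place of edgeR gave 15 and 0 (14.1% and 13.4%). It took both lymphomas as a single group, so the model changed too and the spread between the lymphomas entered it.

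**Figure D2:**
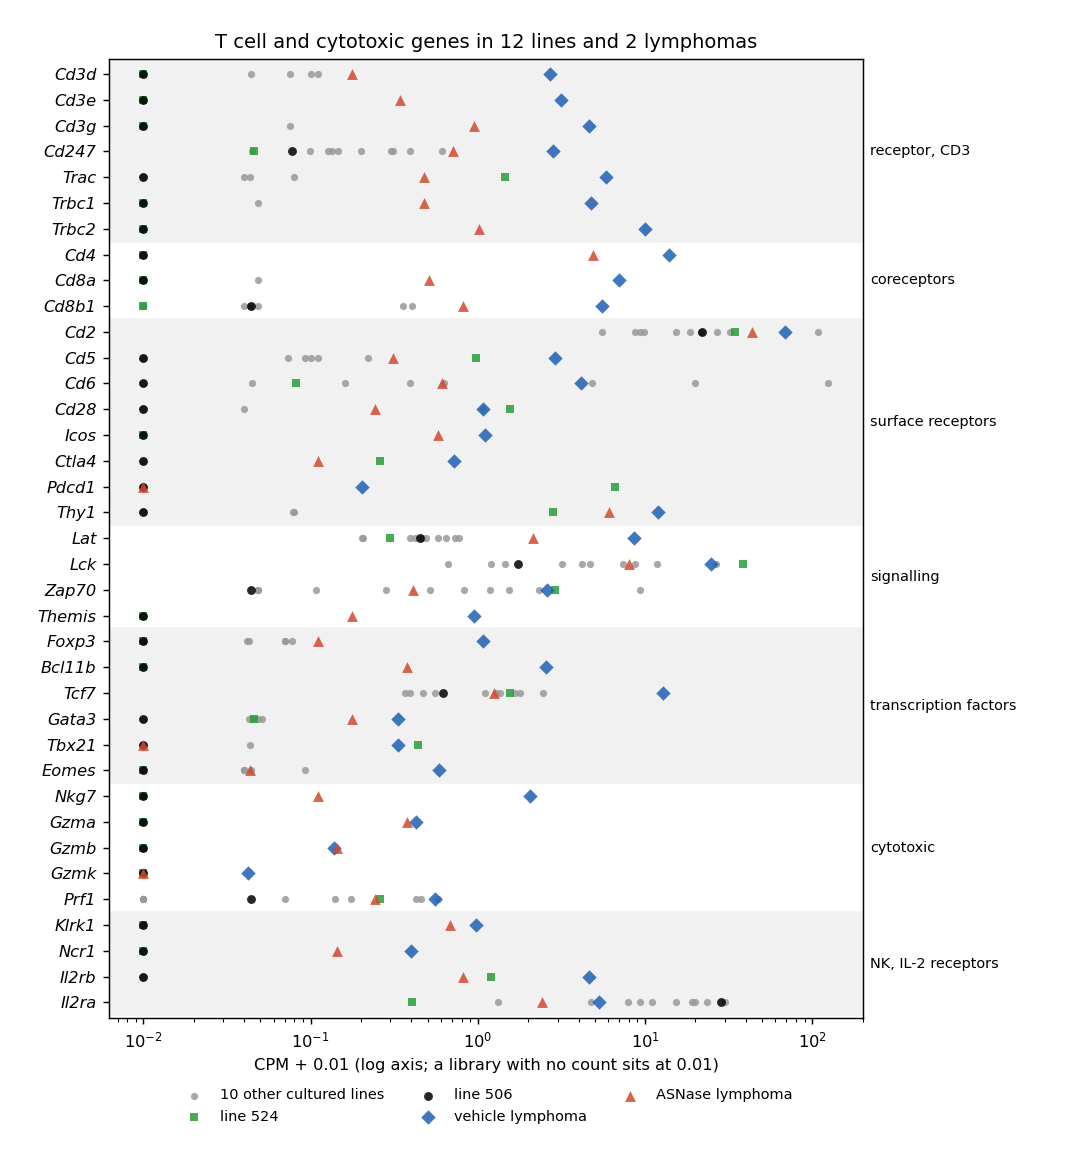
Level of every member (rows, grouped by role) as CPM + 0.01 on a log axis, each library as 1 point, with line 506 in black, line 524 in green and the other 10 lines in grey. The vehicle lymphoma lies above all lines for 28 members and the ASNase lymphoma for 21. Over all genes with a count this was counted only for both lymphomas together (16%), so 28 and 21 have no share beside them.

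The second comparison, ASNase against vehicle lymphoma, asks how the lymphocyte genes of a tumour differed under treatment. With 1 library each it has no test, and a member was called lower or higher by size where the ratio was at least 2-fold and the higher library had 1 CPM or more. Of 25 members at that level, 22 were lower in the ASNase lymphoma and 0 higher, where 4.04% and 4.27% of 13645 genes were lower and higher. All 25 had a ratio below 1 (54.4% of genes), and the 3 not called were Cd2, Icos and Thy1. With 5 CPM required, 9 of 11 were lower and 0 higher (1.99% and 2.7% of genes), and with 0.5 CPM 26 of 30 and 0 (5.34% and 5.14%). The median log2 ratio of the 25 was -2.78, against -0.05 over all genes. Line 506 had no count of 17 of the 25, of which 15 were lower, where 20.2% of 1081 genes without a count in that line were. The exact 95% counting interval of the ratio lay below 1 for all 25 and above 1 for 0 (38.2% and 30.6% of genes). Over all 37 members it lay below 1 for 30, included 1 for 7 and lay above 1 for 0. The vehicle lymphoma had 25 members at 1 CPM or more and the ASNase lymphoma 8.

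**Figure D3:**
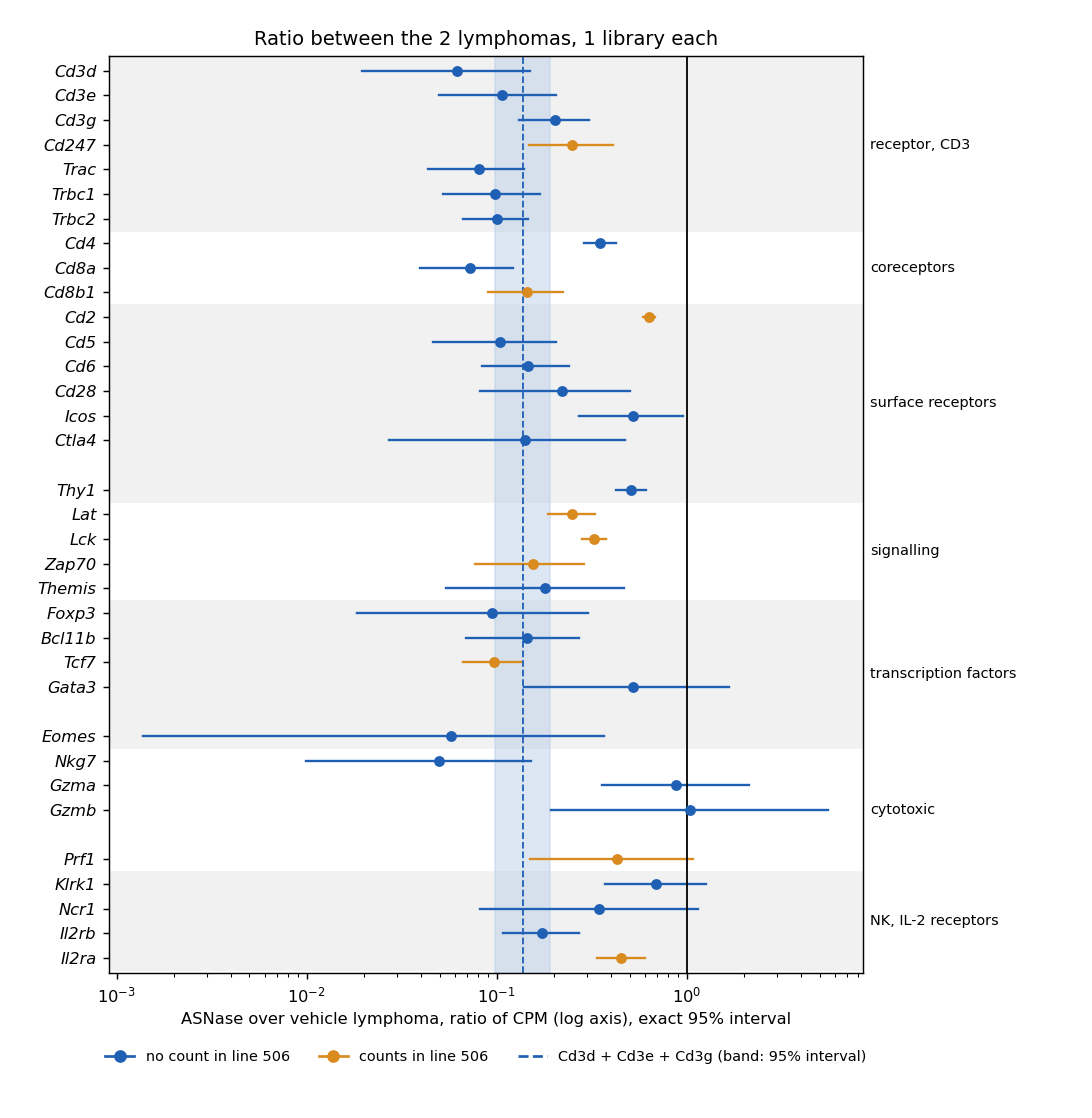
Ratio of the ASNase to the vehicle lymphoma for each member on a log axis, by role, with exact 95% counting intervals, for the 34 members with a count in the ASNase lymphoma. Blue members had no count in line 506, orange ones did, and the band is the interval of Cd3d, Cd3e and Cd3g together. The receptor, CD3 and CD8 genes lie far below 1, as does Nkg7, while Gzma, Gzmb and Klrk1 have intervals that include 1.

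All 7 receptor and CD3 chains were lower in the ASNase lymphoma. Cd3d, Cd3e and Cd3g together were at 10.4 CPM in the vehicle and 1.44 CPM in the ASNase lymphoma, 7.26-fold lower (95% counting interval 5.27 to 10.2). Trac, Trbc1 and Trbc2 together were at 20.6 and 1.94 CPM, 10.6-fold lower (8.11 to 14.1). Single chains ran from Cd247, 3.99-fold lower (2.46 to 6.77), to Cd3d, 16.2-fold lower (6.67 to 51.2). Per kilobase of exon Trbc2 was the highest of the 7 in both lymphomas, at 14.5 and 1.45 CPM, and Cd247 the lowest in the vehicle lymphoma, at 0.526 CPM. The ratio of Trbc2 to Trbc1 counts was 2.10 in the vehicle and 2.14 in the ASNase lymphoma.

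Counts of receptor variable, diversity and joining segments, which are not among the 37, were lower too. Of 259 segments in the table, 101 had a count in the vehicle lymphoma (291 counts) and 23 in the ASNase lymphoma (29 counts), 9.67-fold lower (95% counting interval 6.59 to 14.7). In the vehicle lymphoma no segment held more than 17 counts (Trbv16), and in the ASNase lymphoma none more than 3 (Trbv3). Line 506 had 0 counts, and the other lines 0 to 27, all of them beta segments. Segments are alike in part, so the assignment of their reads is uncertain. The gamma and delta constant regions together had 64 and 10 counts, 6.17-fold lower (3.15 to 13.5).

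The coreceptors were not lower by the same factor. Cd4 was at 13.8 and 4.84 CPM, 2.85-fold lower (95% counting interval 2.36 to 3.47). Cd8a was at 6.95 and 0.501 CPM, 13.9-fold lower (8.23 to 25.2), and Cd8b1 at 5.54 and 0.802 CPM, 6.91-fold lower (4.49 to 11.1). These intervals do not overlap that of Cd4. The ratio of Cd4 to Cd8a counts was 1.99 (1.68 to 2.35) in the vehicle and 9.67 (5.67 to 17.7) in the ASNase lymphoma. In mice CD4 is also found on some dendritic cells and macrophages. A list of 14 macrophage genes summed to 235 CPM in the vehicle and 503 CPM in the ASNase lymphoma, with 7 of the 13 at 1 CPM or more higher by size and 1 lower, and none was at 0 in both. A list of 10 dendritic cell genes summed to 32.7 and 14.6 CPM, with 5 of 7 lower and 1 higher. The part of these cells in the Cd4 result was not tested.

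Surface receptors of T cells spread widely. Cd5, which also marks a subset of B cells, was at 2.90 and 0.301 CPM, 9.64-fold lower (4.86 to 21.8), and Cd6 was 6.85-fold lower (4.17 to 11.9). Ctla4, an inhibitory receptor, had 22 and 3 counts, 7.07-fold lower (2.12 to 36.9), and Cd28 had 33 and 7, 4.54-fold lower (1.98 to 12.2). Pdcd1 had 6 and 0 counts, 1.93-fold lower against the limit of 3 counts, with an exact interval from 1.135-fold. Less far apart were Icos, with 34 and 17 counts, 1.93-fold lower (1.05 to 3.68), and Cd2, at 68.7 and 43.5 CPM, 1.58-fold lower (1.48 to 1.70). Cd2 was at 21.99 CPM in line 506, below both lymphomas. Thy1 was at 12.0 and 6.11 CPM, 1.96-fold lower (1.64 to 2.35), and line 506 had no count of it. Thy1 is also carried by fibroblasts, and 10 genes of fibroblasts and reticular stroma summed to 892 and 2126 CPM, with 4 higher by size, 2 lower and none at 0. Their part in the Thy1 result was not tested.

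Of the 4 signalling genes, Lck, Lat and Zap70 were lower by size in the ASNase lymphoma. Lck was at 24.8 and 8.05 CPM, 3.08-fold lower (2.66 to 3.57), and both values lay above line 506 and within the range of the lines. Lat was 4.01-fold lower (3.04 to 5.35), at 8.56 and 2.14 CPM. Zap70 was at 2.58 and 0.401 CPM, 6.43-fold lower (3.48 to 13.0). Themis, a protein of T cell development, had 29 and 5 counts, 5.59-fold lower (2.14 to 18.5), and stayed under 1 CPM in both.

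Of the 6 transcription factors, Tcf7, Bcl11b and Foxp3 were lower by size and the others stayed under 1 CPM. Tcf7 was at 12.8 CPM in the vehicle and 1.24 CPM in the ASNase lymphoma, 10.4-fold lower (7.41 to 14.98), and the ASNase value lay inside the range of the lines. Bcl11b was 6.92-fold lower (3.67 to 14.4) and Foxp3 10.6-fold lower (3.33 to 54.0). Eomes, a factor of cytotoxic cells, had 18 counts and 1 count, 17.4-fold lower (2.74 to 723). Tbx21, which encodes T-bet, had 10 and 0, 3.21-fold lower against the limit of 3 counts, with an exact interval from 2.16-fold. Gata3 had 10 and 5 counts, and its interval included 1 (0.600 to 7.19).

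Cytotoxic and NK genes were low in both lymphomas and divided. Nkg7 was at 2.03 and 0.100 CPM, 20.2-fold lower (6.62 to 101). Gzma had 13 and 11 counts, 1.14-fold lower with an interval that included 1 (0.471 to 2.81), and Gzmb had 4 in each. Gzma, Gzmb and Gzmk together had 18 and 15 counts, 1.16-fold lower (0.551 to 2.47). Klrk1 had 30 and 20 counts, 1.45-fold lower (0.794 to 2.69), Prf1 17 and 7, 2.34-fold lower (0.923 to 6.68), and Ncr1, the NK receptor NKp46, 12 and 4, 2.89-fold lower (0.876 to 12.3). The intervals of all 3 included 1, so that a difference was not detectable for them at this depth. Il2rb was at 4.60 and 0.802 CPM, 5.74-fold lower (3.71 to 9.26). Il2ra was 2.21-fold lower (1.67 to 2.96), at 5.31 and 2.405 CPM, and both values lay below the 28.4 CPM of line 506.

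To describe each member against the T cell receptor complex of the same library, its counts were divided by those of Cd3d, Cd3e and Cd3g. This share was compared between the lymphomas for 34 members, with intervals not adjusted for their number. It was higher in the ASNase lymphoma for 11 members, lower for 1, and had an interval that included 1 for 22. Cd3d, Cd3e and Cd3g together were 7.26-fold lower, while the median log2 ratio over all genes was -0.05. A gene at that median would thus also be higher on this measure. How many of all genes would be higher was not counted, so the 11 are not set apart by it. The 11 were Cd4 (2.55 times, 1.74 to 3.78), Cd2 (4.59, 3.30 to 6.51), Thy1 (3.71, 2.55 to 5.46), Icos (3.77, 1.81 to 7.61), Lat (1.81, 1.17 to 2.83), Lck (2.36, 1.65 to 3.43), Il2ra (3.29, 2.11 to 5.14), Klrk1 (5.02, 2.46 to 10.0), Gzma (6.38, 2.404 to 16.4), Gzmb (7.53, 1.34 to 41.6) and Prf1 (3.10, 1.02 to 8.41). Line 506 itself had counts of Cd2, Lat, Lck, Il2ra and Prf1. The 1 lower was Cd8a (0.523, 0.263 to 0.990), whose interval included 1 when the constant regions were the denominator (0.765, 0.394 to 1.40). All 11 stayed above 1 with that denominator and with all 7 chains. With the constant regions as denominator, Cd247 (2.66, 1.46 to 4.70), Gata3 (5.51, 1.42 to 18.3) and Il2rb (1.85, 1.06 to 3.14) also lay above 1. So did Cd3g (2.16, 1.27 to 3.58), so the chains used as denominators differ among themselves.

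Lists that hold no member describe other genes of these cells. Of 42 tested among 50 other T cell genes, 10 were higher in the lymphomas than in the lines. Of these, 3 were among the 30 that passed through a line, near the background of 7.56%, and the rest passed only through a lymphoma, where 65.1% of genes are called. Txk, a kinase of T cells (adjusted p = 8.85e-05), and Cd27, a costimulatory receptor with no count in any line (adjusted p = 0.0400), belong to the latter. Between the lymphomas 18 of 33 were lower by size, 1 higher and 14 neither, with a median log2 ratio of -1.12. Cd27 was at 3.41 and 0.200 CPM, and Txk at 1.71 and 0.468 CPM. Camk4 and Havcr2, with the next smallest p after Txk, were not lower. Camk4 was at 0.934 and 1.04 CPM (ASNase over vehicle 1.11, 0.647 to 1.91). Havcr2 was at 1.29 and 1.74 CPM (1.35, 0.876 to 2.09). Both intervals included 1, and 27 of the 33 genes had a ratio below 1. The 1 higher was Maf, named after its values were seen, a transcription factor of helper T cells and macrophages, at 5.57 and 12.8 CPM. Among 26 other NK and cytotoxic genes, 2 of 15 tested were higher in the lymphomas (Ctsw and Itga2, the second only through a lymphoma), near the background of 13.4%. Between the lymphomas 3 of 7 were lower by size in the ASNase lymphoma (Klrd1, Ccl5 and Ctsw). Ccl5, a chemokine of cytotoxic cells, was at 5.25 and 0.701 CPM. Of 10 gamma delta T cell genes listed, 7 were matched by name, and 2 of the 3 at 1 CPM or more, Trdc and Cd163l1, were lower by size.

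Markers of other cell types differed between the lymphomas in both directions. Endothelial genes summed to 317 and 201 CPM, with 2 of 9 lower by size, 0 higher and 7 neither (median log2 ratio -0.86). Among the lower was Glycam1, of the venules through which lymphocytes enter a node, at 25.0 and 0.902 CPM. Ccl19 and Ccl21a, chemokines that draw T cells into the node, were at 3.25 and 0.501 CPM and at 67.4 and 20.2 CPM. They are the 2 members of the fibroblast and stroma list lower by size, whose collagen genes Col1a1, Col1a2 and Col3a1 and Lum were higher by size and whose median log2 ratio was 0.49. Fcer2a and Cr2, of mature B cells, had no count in line 506 and were at 9.88 and 0.167 CPM and at 5.05 and 0.468 CPM. Neutrophil genes summed to 23.6 and 13.8 CPM, erythroid genes to 221 and 162 CPM, platelet genes to 5.63 and 6.41 CPM and plasma cell genes to 388 and 278 CPM. How far host tissue content goes with the lower lymphocyte genes was not tested.

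**Figure D4:**
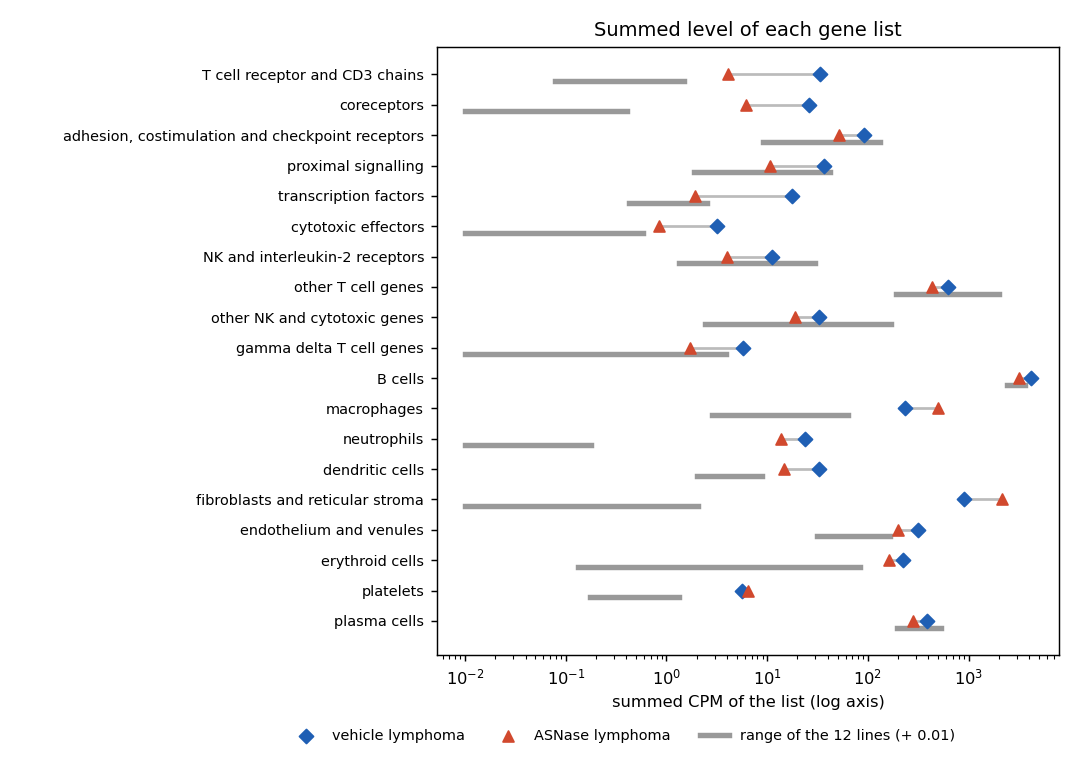
Summed CPM of each gene list on a log axis, as a grey bar for the range of the 12 lines, a diamond for the vehicle and a triangle for the ASNase lymphoma. The T cell, NK and gamma delta lists are lower in the ASNase than in the vehicle lymphoma, while macrophage genes (235 and 503 CPM) and fibroblast and stroma genes (892 and 2126 CPM) are higher.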

How the data were processed

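RNA sequencing gave raw counts per gene for 14 libraries. Per the submitters' processing notes, reads were handled with featureCounts (Subread 1.5.0-p3) and STAR 2.4.0, with mm10 or GRCm38 as the build. The authors deposited whole-number counts without normalization. The strand setting is not given in the sources used here, so reads of overlapping and antisense genes cannot be told apart. The exon length in bases stands in the deposited table, and was used only for CPM per kilobase.

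The 100 spike-in and phage entries were left out. All 14 columns were matched to samples by title, and 0 were left over. Counts were scaled by TMM and fitted with edgeR 4.0.16 (filterByExpr, glmQLFit, glmQLFTest, limma 3.58.1, R 4.3.3) in 3 groups, with 11 residual degrees of freedom. The contrast was the mean of both lymphomas minus the lines, adjusted over 17450 genes with a threshold of 0.05. DESeq2 1.42.0 was an alternative, with both lymphomas in a single group against the lines. The SE is the log2 difference divided by the square root of F, and is not given for genes almost without counts in the lines. The lymphomas were compared by exact 95% binomial intervals (scipy 1.17.1, Python 3.11.15), and figures were drawn with matplotlib 3.10.9. The edgeR step was tested on simulated data.

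All members may be named. Of each other list the rule allowed the 3 genes with the smallest edgeR p, the 3 with the largest ratio between the lymphomas and the gene with most counts, and of receptor segments the 3 with most counts. The members and lists were chosen with earlier results of these data known. Alternatives left out 1 library or changed the scaling, the filter, the level required and the denominator.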

Additional observations from a re-analysis of the deposited data

How the results depend on the processing

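Counts of members higher in the lymphomas stayed within 1.5 times the 16 reported under total-count scaling (16), no low-count filter (18) and DESeq2 (15), and ranged from 5 to 21 when 1 library was left out. The count was 5 without the vehicle lymphoma, where 23 members remained to be tested, 13 without the ASNase lymphoma and 21 without line 524. DESeq2 called 12 of the 16, without Bcl11b, Cd3e, Icos and Klrk1, and added Il2rb, Thy1 and Trac. No setting called a member lower. Without the low-count filter the added calls were Gzma, Nkg7 and Themis, which had no count in any line, so their direction was fixed. The share of all genes called is not given here for total-count scaling, for no low-count filter or for leaving out line 524. With a level of 5 CPM required, 9 of 11 members were lower by size in the ASNase lymphoma in place of 22 of 25, because fewer reached that level. The count of members below the CD3 chains went from 1 to 0 with the receptor constant regions and to 0 with all 7 chains as denominator.

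Among members that passed no test, the log2 difference from the lines changed sign for Cd6, Pdcd1, Lck, Zap70 and Tbx21. With DESeq2 it went from -2.99 to 0.10 for Cd6 and from -4.25 to 3.98 for Pdcd1. For Lck it went from 0.62 to -0.19 without the vehicle lymphoma, and was 1.43 without the ASNase lymphoma. For Zap70 it went from -0.64 to 0.69 without the ASNase lymphoma and 0.21 without line 136, and was -1.97 without the vehicle lymphoma. For Tbx21 it went from -0.19 to 2.94 without the ASNase lymphoma and to 2.10 with DESeq2. The cause was not tested. Leaving out each line other than 506 was chosen after seeing the data. No paired analysis was possible because each lymphoma has 1 library and both derive from line 506. Depth limits Pdcd1, Gata3, Tbx21, Eomes, Gzma, Gzmb, Gzmk, Prf1 and Ncr1, each with fewer than 20 counts in either lymphoma.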
